A study of Mus musculus with 10 samples.

Results

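Rgs4, Gabbr2 and Rapgef4 are 3 genes that act on G-protein and cAMP signaling, the signals that set how much insulin a beta-cell releases. They were taken by gene symbol from a table of 230 genes measured by mRNA sequencing of MIN6N8 cells, and all 3 symbols were found in it. MIN6N8 is an immortal mouse insulinoma line used as a model of pancreatic beta-cells. The libraries were 5 from cells given PBS, the vehicle, and 5 from cells given IL-22, a cytokine whose receptor is carried by epithelial and secretory cells. Both groups were moved from high-glucose medium to medium with 5.5 mM glucose, and the labels give 100 ng/mL IL-22 for 4 h. The study's methods name a lower dose for this experiment, so the dose is given here as labelled. The line is 1 tumour-derived culture without the other cells of an islet. In such bulk samples, more cells expressing a gene and more RNA per cell cannot be told apart. The study's figure legend calls the samples of this experiment independent, with a sample number that differs from the 5 libraries a group here. Neither the legend nor the labels say whether the replicates were separate cultures. The p-values therefore measure only the spread between these samples, which may be technical.

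A G-protein passes the signal of a receptor at the cell surface to enzymes inside, and it is switched off when its alpha subunit hydrolyses GTP. Rgs4 encodes a regulator of G-protein signaling that speeds this hydrolysis on Gi and Gq alpha subunits and so shortens the signal. Gabbr2 encodes a subunit of the GABA-B receptor, the one that couples the receptor to Gi, and beta-cells make and release GABA. Gi lowers cAMP by inhibiting adenylyl cyclase. Rapgef4 encodes EPAC2, an exchange factor for the small G-protein Rap that is switched on by cAMP and that promotes insulin granule exocytosis alongside protein kinase A.

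In these libraries Rgs4 and Gabbr2 transcripts were more abundant with IL-22 than with PBS, with no overlap between the groups. Such a lack of overlap was also seen for Rapgef4, and in all for 107 of the 230 listed genes (46.5%), which the same comparison had selected. With libraries scaled by their totals Rgs4 rose 1.26-fold and Gabbr2 1.29-fold. With TMM factors over the listed genes both stayed higher by less, 0.13 for Rgs4 and 0.17 for Gabbr2 on the log2 scale, and neither passed the test. Rapgef4 was 1.09-fold higher when libraries were scaled by their totals, and its sign turned when libraries were scaled on the listed genes. The study's own test had selected it, but here its p did not pass when adjusted for the number of genes the study tested. Only the listed genes could be fitted for this, so a test of all genes was not run. Relative to Rapgef4, counted in the same library, both Rgs4 and Gabbr2 were more abundant with IL-22.

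The 3 genes differ in structure. In the GENCODE annotation of GRCm38, Rgs4 (ENSMUSG00000038530.11) lies on the minus strand at chr1:169741477-169747642, spans 6.17 kb and has 5 exons in its longest coding transcript. Gabbr2 (ENSMUSG00000039809.10) lies on the minus strand at chr4:46662305-46991873, spans 329.6 kb and has 19 exons. Rapgef4 (ENSMUSG00000049044.16) lies on the plus strand at chr2:71981240-72257474, spans 276.2 kb and has 31 exons. Coding transcripts of Rgs4 share 1 start, those of Gabbr2 have 2 and those of Rapgef4 have 3. Reads were counted per gene, so transcripts from different starts, and in Rapgef4 the isoforms that pancreatic islets and brain are known to use, cannot be told apart here. Rapgef4 overlaps 4 annotated genes on the opposite strand, and exons of Rapgef4os1 and Rapgef4os2 overlap its own. The library kit keeps strand, but whether the counting used it is not given in the sources used here, so the Rapgef4 counts may hold reads of those antisense genes. No gene overlaps Rgs4 or Gabbr2, and neither shared 100 nt or more at 97% identity with a transcript of another gene.

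**Figure D1:**
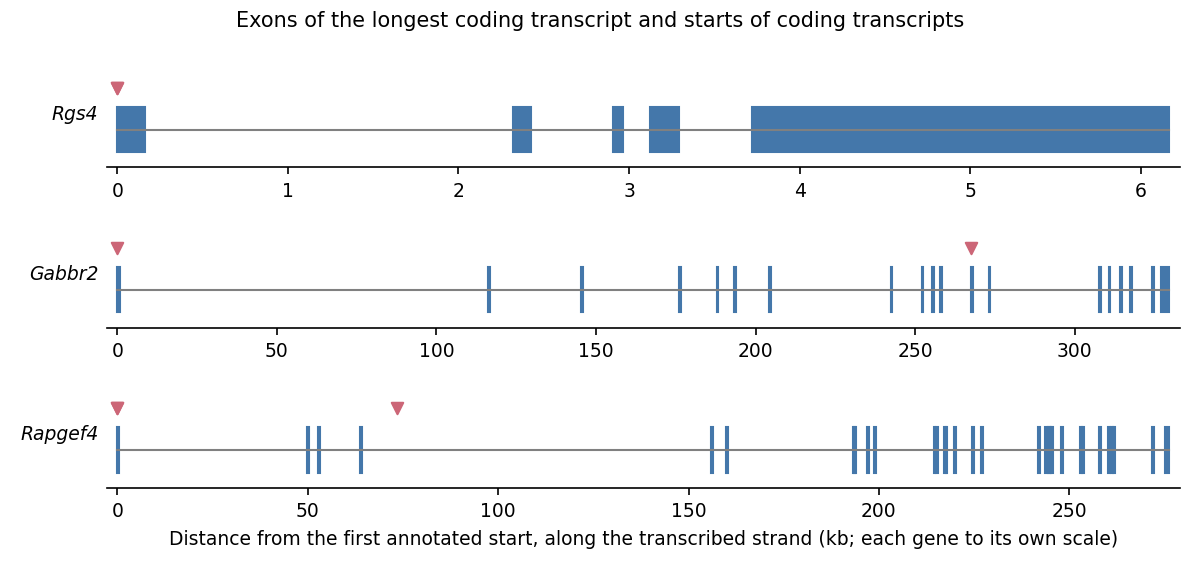
Exons of the longest coding transcript (blue boxes, widened where too narrow to see) and starts of coding transcripts (red triangles) of the 3 genes, against the distance in kb from the first annotated start, each gene to its own scale. Rgs4 fits in 6.17 kb with 1 start, while Gabbr2 and Rapgef4 spread 19 and 31 exons over 329.6 and 276.2 kb, and 2 of the 3 Rapgef4 starts lie 0.047 kb apart and share a triangle at this scale.

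The sequence just upstream of each gene is shown because Rgs4 and Gabbr2 both rose while their promoters differ in base composition. The sequences are from RefSeq on GRCm38.p6, written 5′ to 3′ on the strand of the gene and cut to the bases upstream of both the RefSeq and the GENCODE start, at chr1:169747643-169747892 for Rgs4, chr4:46991874-46991964 for Gabbr2 and chr2:71980965-71981214 for Rapgef4. Capitals mark TATAAA and ATTGG, the latter being CCAAT on the opposite strand.
Rgs4: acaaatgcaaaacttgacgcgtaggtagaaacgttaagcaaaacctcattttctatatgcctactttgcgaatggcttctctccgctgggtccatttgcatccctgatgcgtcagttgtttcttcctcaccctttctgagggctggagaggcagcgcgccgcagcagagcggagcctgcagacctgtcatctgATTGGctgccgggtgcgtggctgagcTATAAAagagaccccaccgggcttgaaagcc
Gabbr2: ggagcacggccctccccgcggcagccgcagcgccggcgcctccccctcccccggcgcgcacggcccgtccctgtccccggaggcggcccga
Rapgef4: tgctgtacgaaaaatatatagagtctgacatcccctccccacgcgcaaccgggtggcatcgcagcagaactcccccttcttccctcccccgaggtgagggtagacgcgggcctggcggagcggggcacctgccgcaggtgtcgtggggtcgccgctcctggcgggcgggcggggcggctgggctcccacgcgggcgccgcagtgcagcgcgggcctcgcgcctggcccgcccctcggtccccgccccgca

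Over the whole window of 250 bases before to 50 after the RefSeq start, the Rgs4 promoter had 53.0% GC, close to the median of 52.7% over 32851 promoters, and 13 CpG, above the median of 7. The Gabbr2 promoter had 80.3% GC and 46 CpG, and 99.1% of promoters had less GC. The Rapgef4 promoter had 76.7% GC and 40 CpG, and 97.3% of promoters had less GC. In GC content, then, the Gabbr2 promoter stood with that of Rapgef4 and not with that of Rgs4. The Rgs4 window held TATAAA from 31 to 26 bases before the start and ATTGG from 57 to 53 bases before it. Neither motif was in the other windows. TATAAA was in 13.6% of all promoters and CCAAT in 37.4%, and both were searched after the sequences had been read. The STAT motif TTCNNNGAA, in 8.30% of all promoters and 8.97% of the 234 promoters of listed genes, was in none of these 3 windows on either strand. The AP-1 motif TGANTCA, in 7.81% and 3.85%, and the cAMP response element TGACGTCA, in 1.79% and 3.42%, were not in them either. These letters say nothing of binding elsewhere.

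Library totals ran from 23685887 to 35785872 counted reads, and the listed genes took 2.87% to 3.11% of each. The table holds the genes that the study's own test of IL-22 against PBS selected, so a listed gene differs between the groups by construction. IL-22 libraries had the higher mean for 197 of the 230 and the lower for 33, with a median log2 fold change of 0.21. Beta-cell genes were present in every library. Iapp, the islet amyloid gene, had 8072 to 9121 CPM (the reads of a gene scaled to a common library total), and Pdx1, a beta-cell transcription factor, had 179 to 224 CPM. Of 22 beta-cell markers 6 were in the table, and the others, like all 20 markers of other pancreatic and immune cells, were not analysed here.

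Rgs4 had the most reads of the 3 genes and the widest gap between the groups. With PBS its level was 272.2, 268.9, 272.2, 279.4 and 268.2 CPM in replicates 1 to 5. With IL-22 it was 341.1, 335.3, 358.4, 341.3 and 344.1 CPM. The lowest IL-22 library lay 55.9 CPM above the highest PBS library. The mean went from 272 ± 4.44 to 344 ± 8.63 CPM (SD, n = 5 each), a difference of 71.9 CPM that is many times either SD. On the log2 scale the change was 0.34 with an SE of 0.028. With edgeR's quasi-likelihood test Rgs4 had the smallest p of the 230 listed genes, 2.03e-09, and a Benjamini-Hochberg adjusted p of 3.21e-05 when adjusted over the 16308 genes the study tested. The exact permutation test of the CPM values, two-sided, gave p = 0.00794, the smallest that 5 against 5 libraries can give. Behind these values stood 6369 to 10428 Rgs4 reads a library.

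Gabbr2 had the fewest reads of the 3, and it too was higher in every IL-22 library. With PBS its level was 78.0, 81.7, 76.2, 80.9 and 84.5 CPM in replicates 1 to 5. With IL-22 it was 99.1, 104.3, 106.7, 104.6 and 104.9 CPM. The gap between the groups was 14.6 CPM. The mean went from 80.3 ± 3.23 to 104 ± 2.85 CPM (SD, n = 5 each). The log2 fold change was 0.37 with an SE of 0.038, and the adjusted p with edgeR over the 16308 genes was 0.000207. Gabbr2 ranked 3 by p and 42 by log2 fold change, beside ranks of 1 and 48 for Rgs4. Their biological coefficients of variation, 3.86% for Rgs4 and 4.43% for Gabbr2, were below the median of 5.77% over the listed genes, as was that of Rapgef4 at 4.08%. Gabbr2 gave 1935 to 3029 reads a library.

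Rapgef4 differed little between the groups. With PBS its level was 162.1, 160.1, 157.7, 166.4 and 155.0 CPM in replicates 1 to 5. With IL-22 it was 169.0, 176.7, 176.4, 174.3 and 174.3 CPM. The groups did not overlap, but the gap between PBS replicate 4 and IL-22 replicate 1 was 2.58 CPM, less than the SD of either group. The mean was 160 ± 4.34 CPM with PBS and 174 ± 3.11 CPM with IL-22 (SD, n = 5 each), a difference of 13.9 CPM or 8.67%. The log2 fold change of 0.12 (SE 0.031) had an adjusted p of 0.231 over the 16308 genes with edgeR and 0.00325 over the listed genes alone, and its sign turned to -0.089 with TMM factors and to -0.078 with DESeq2's size factors, both computed over the listed genes. Rapgef4 ranked 192 of 230 by log2 fold change. Its counts of 3791 to 5801 a library lay above those of Gabbr2, so depth set no tighter limit on Rapgef4 than on Gabbr2.

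**Figure D2:**
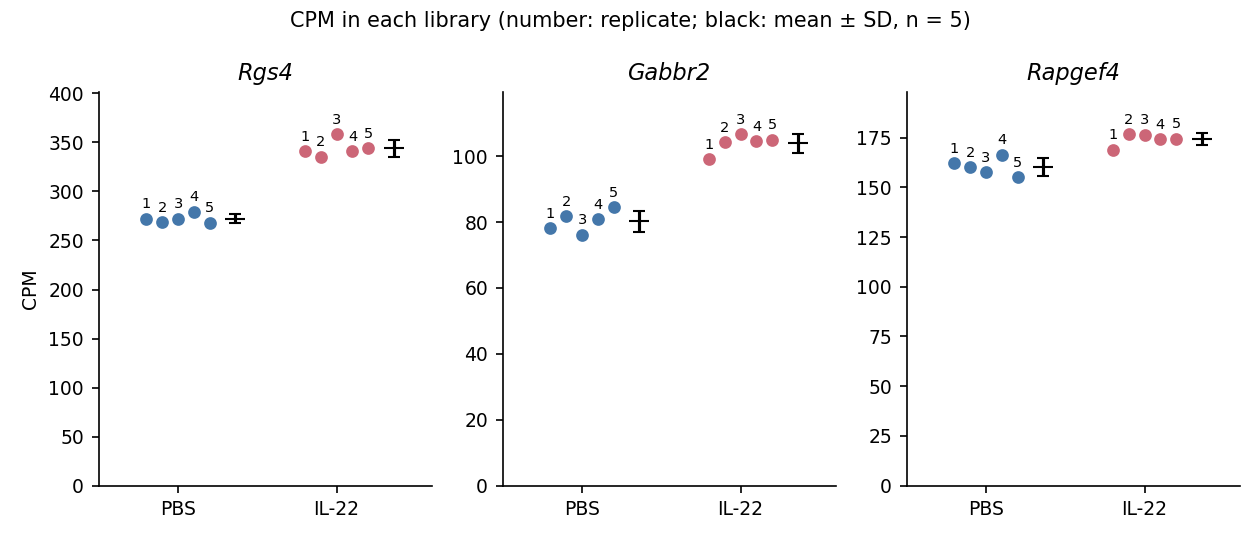
CPM of Rgs4, Gabbr2 and Rapgef4 in each PBS (blue) and IL-22 (red) library, with the replicate number above each point and the mean ± SD (n = 5) in black. The groups are apart by 55.9 CPM in Rgs4 and 14.6 CPM in Gabbr2 but by 2.58 CPM in Rapgef4, whose direction turns when libraries are scaled on the listed genes.

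At an adjusted p below 0.01 over the 16308 genes, Rgs4 and Gabbr2 passed, and 11 of the 230 listed genes (4.78%) were called higher at this threshold. That count over the listed genes ran from 4 to 58 when a library was left out, and the 58 came without PBS replicate 5. Adjusted over the listed genes alone, all 3 passed, as did 187 of 230 (81.3%). Groups that did not overlap, with IL-22 higher, were seen for all 3 and for 107 of 230 listed genes (46.5%), and each of the 3 gave the same exact permutation p of 0.00794. The last 2 shares are those of a table selected by the same comparison, so passing there says little of a single gene.

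**Figure D3:**
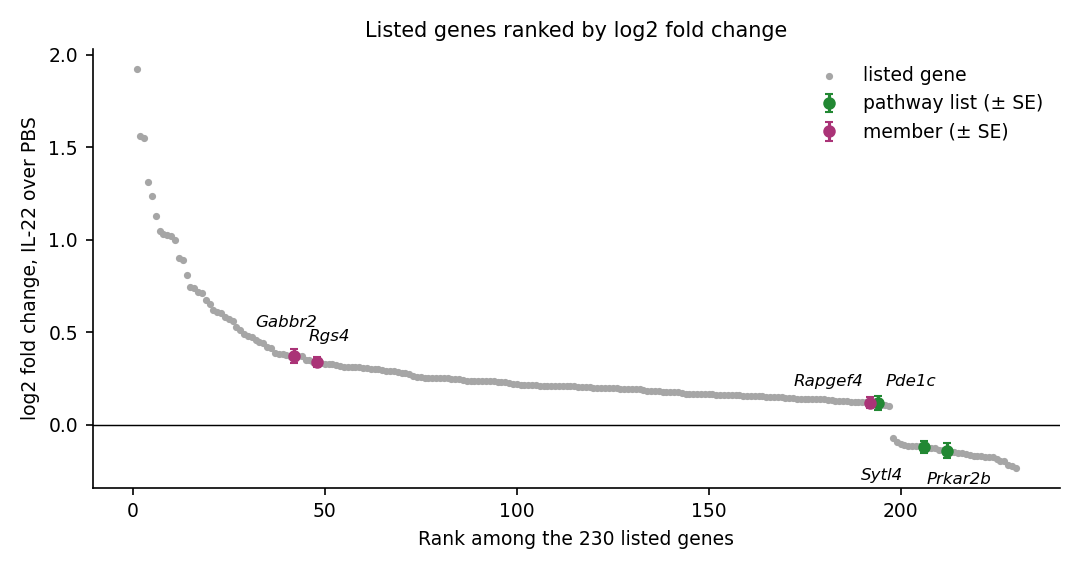
Log2 fold change (IL-22 against PBS) of the 230 listed genes (grey) against their rank, with Rgs4, Gabbr2 and Rapgef4 (purple) and the other genes of the pathway lists (green) with their SE. Gabbr2 and Rgs4 sit at ranks 42 and 48, and Rapgef4 at 192 with a log2 fold change of 0.12 that turns negative with size factors from the listed genes; the gap around 0 comes from the selection of the table.

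Set per kb of exon, so that levels can be compared between genes, Rgs4 had 87.9 CPM per kb with PBS and 111.1 with IL-22. Rapgef4 followed with 24.0 and 26.1 CPM per kb, and Gabbr2 was lowest with 12.0 and 15.5 CPM per kb. The order of the levels was the same in both groups, and the steps between neighbours were far larger than the SD among replicates, which was 1.63% to 4.02% of the mean. This scale uses the summed annotated exons of each gene, 3.098 kb for Rgs4, 6.686 kb for Gabbr2 and 6.677 kb for Rapgef4, and not the isoforms in use.

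Whether the genes moved by different amounts was tested on the ratio of their counts within a library, which does not depend on the library total. Rgs4 to Rapgef4 was 1.68, 1.68, 1.73, 1.68 and 1.73 in PBS replicates 1 to 5. With IL-22 the same ratio was 2.02, 1.90, 2.03, 1.96 and 1.97. Every IL-22 library was above every PBS library, and the log2 ratio differed by 0.22 (SE 0.020), with a 95% interval of 0.177 to 0.269 from inverting the exact permutation test. Gabbr2 to Rapgef4 was 0.481, 0.510, 0.483, 0.486 and 0.545 with PBS and 0.586, 0.590, 0.605, 0.600 and 0.602 with IL-22. These groups did not overlap either, with PBS replicate 5 nearest to the IL-22 libraries, and the log2 ratio differed by 0.25 (SE 0.035), interval 0.158 to 0.317. Each of these 2 differences had an exact permutation p of 0.00794, or 0.0119 after Benjamini-Hochberg adjustment over the 3 pairs.

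Rgs4 to Gabbr2 was 3.49, 3.29, 3.57, 3.45 and 3.18 with PBS and 3.44, 3.22, 3.36, 3.26 and 3.28 with IL-22. These groups overlapped. The log2 ratio differed by -0.035 (SE 0.035; exact permutation p = 0.325), with an interval of -0.116 to 0.051. The test does not show that the 2 genes moved alike, and the interval reaches a difference of -0.116 beside their log2 fold changes of 0.34 and 0.37.

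**Figure D4:**
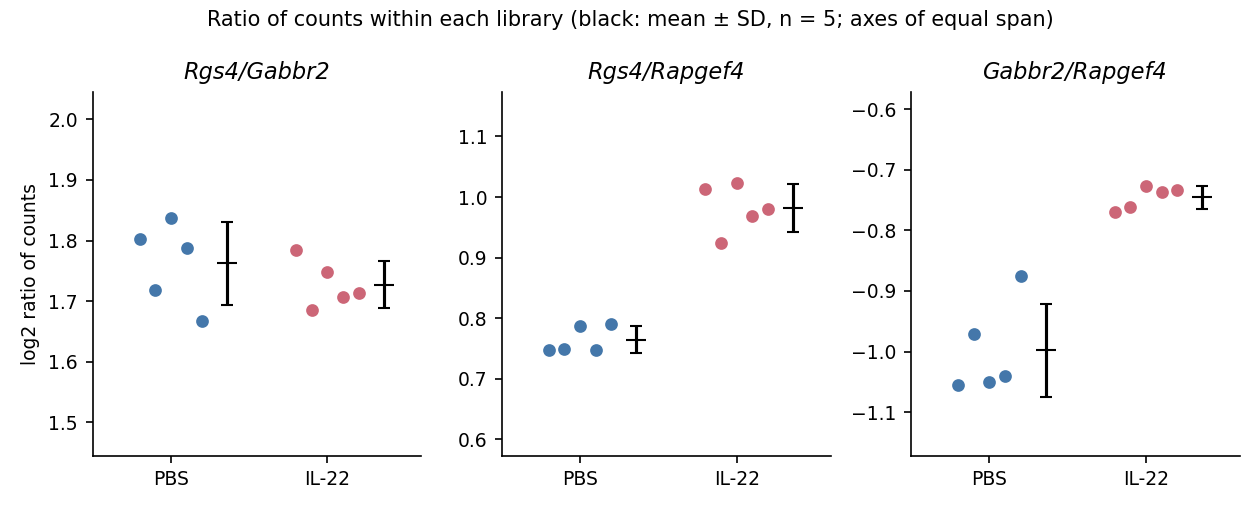
Log2 ratio of the counts of each pair of genes within each PBS (blue) and IL-22 (red) library, with the mean ± SD (n = 5) in black, on vertical axes of equal span. The ratios to Rapgef4 are higher in every IL-22 library, by 0.22 for Rgs4 and 0.25 for Gabbr2, while the Rgs4 to Gabbr2 ratios overlap.

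The likeness of profiles over the 10 libraries was measured as the root mean square difference of log2 CPM, each gene taken from its own PBS mean. The listed gene nearest to Rgs4 was Gabbr2, and the nearest to Gabbr2 was Rgs4, at 0.0558. Next to Rgs4 came Stat3, the transcription factor through which the IL-22 receptor is known to signal, at 0.0713. Stat3 went from 227 ± 4.51 to 276 ± 11.2 CPM (SD, n = 5), which is 0.28 on the log2 scale (SE 0.032; adjusted p = 0.000939 with edgeR over the 16308 genes). That call was lost with TMM factors (0.073), with DESeq2's own size factors (0.083) and with the GC index described further on (0.24, adjusted p = 0.0345). Reps2, whose product takes part in endocytosis, followed at 0.0743. Next to Gabbr2 came Nol3, an apoptosis repressor, at 0.0667 and Vwa5a at 0.0724. Rapgef4 was far from both, at 0.156 from Rgs4 and 0.186 from Gabbr2. By nearness to Rgs4, Rapgef4 ranked 139 among the other listed genes. The genes nearest to Rapgef4 were Ube2c, a ubiquitin-conjugating enzyme of mitosis, at 0.0304, Pim2, a serine/threonine kinase, at 0.0375 and Wars, the tryptophanyl-tRNA synthetase, at 0.0405. These 3 had log2 fold changes of 0.12, 0.13 and 0.13, each of which turned negative with size factors from the listed genes, as did that of Rapgef4. The measure follows the difference between the groups for the most part, since every listed gene has one.

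Around these genes, 6 lists of 220 genes of G-protein signaling, GABA handling, cAMP and granule exocytosis were looked up. Only 6 of the 220 were in the table, which are Rgs4, Gabbr2, Rapgef4 and 3 others. Rgs4 was 1 of 27 regulators of G-proteins, Gabbr2 was 1 of 29 genes of GABA receptors and handling, and none of 29 G-protein subunits or 41 G-protein coupled receptors was listed. The cAMP list gave 3 of 57, and the exocytosis list 1 of 37. The unlisted genes were not analysed here, so nothing follows for them.

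Pde1c encodes a phosphodiesterase that breaks down cyclic nucleotides. Its level was 187 ± 8.38 CPM with PBS and 203 ± 5.89 CPM with IL-22 (SD, n = 5), with 4 of 5 IL-22 libraries above the highest PBS library. The log2 fold change of 0.12 (SE 0.036) had an adjusted p of 0.436 over the 16308 genes with edgeR, and its sign turned with the same scalings as that of Rapgef4. Prkar2b encodes a regulatory subunit of protein kinase A, the other main cAMP sensor of the beta-cell. Its level was 82.7 ± 3.02 CPM with PBS and 75.1 ± 2.91 CPM with IL-22. The log2 difference of -0.14 (SE 0.040) did not pass with edgeR over the 16308 genes (adjusted p = 0.318). Sytl4 encodes granuphilin, which docks insulin granules at the plasma membrane. Its level was 279 ± 9.49 CPM with PBS and 257 ± 5.62 CPM with IL-22, and the groups did not overlap. On the log2 scale the difference was -0.12 (SE 0.031), and edgeR gave 0.221 as the adjusted p over the 16308 genes. Scaled by library totals, none of these 3 passed over the 16308 genes, while over the listed genes alone their adjusted p-values were 0.00614, 0.00449 and 0.00311. Scaled on the listed genes, Prkar2b and Sytl4 did pass over the 16308 genes, with -0.35 (adjusted p = 0.00301) and -0.33 (0.00211) under TMM factors in edgeR and -0.34 (1.43e-06) and -0.32 (1.19e-08) with DESeq2's own size factors.

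The libraries also differed in how abundance followed the GC content of transcripts. A GC index, the slope over the listed genes of log2(CPM + 1), relative to its mean over libraries, on the GC percent of the transcript, was -0.140, -0.127, -0.035, -0.074 and 0.056 per 10 points of GC in PBS replicates 1 to 5. In the IL-22 libraries it was 0.040, 0.069, 0.064, 0.088 and 0.060. The index was thus higher with IL-22, and PBS replicate 5 lay among the IL-22 libraries. Every gene behind the index was selected by the same comparison, so the index may itself carry the difference between the groups. A technical shift with GC and the treatment cannot be told apart here. In that library Rgs4 and Rapgef4 had their lowest PBS levels, 268.2 and 155.0 CPM, and Gabbr2 its highest, 84.5 CPM. Transcript GC was 44.0% in Rgs4, 45.9% in Rapgef4 and 56.0% in Gabbr2, beside a median of 56.8% over the listed genes. Fitted beside the index, with each gene given the index computed on the random set of listed genes it was not in, Rgs4 had a log2 fold change of 0.35 (adjusted p = 0.0022 with edgeR over the 16308 genes), Gabbr2 had 0.34 (0.0033) and Rapgef4 had 0.16 (1). With the replicate number added to that fit as a block, neither Rgs4 (adjusted p = 0.0169) nor Gabbr2 (0.072) passed. Their log2 fold changes were then both 0.38, with SEs of 0.058 and 0.065, beside SEs of 0.028 and 0.038 without index and block. Of the other named genes, the index moved Pde1c to 0.19, Prkar2b to -0.081 and Sytl4 to -0.081, none of which passed, and Vwa5a, at 0.37 without it (adjusted p = 0.00949), lost its call (0.38, adjusted p = 0.326). Vwa5a also lost it when any library other than PBS replicate 5 was left out, with log2 fold changes of 0.34 to 0.40 and adjusted p-values of up to 0.045 with edgeR. The part of GC content in the count ratios was not tested.

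The table allows no scaling on genes that did not differ, because it holds none. TMM factors or DESeq2's size factors over the listed genes moved the log2 fold changes of all of them by a median of -0.21 and -0.20. The values were then 0.13 and 0.14 for Rgs4 (adjusted p = 1 and 0.169 over the 16308 genes), 0.17 and 0.18 for Gabbr2 (0.143 and 0.00197), and negative values for Rapgef4. The count ratios above are untouched by this choice.

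**Figure D5:**
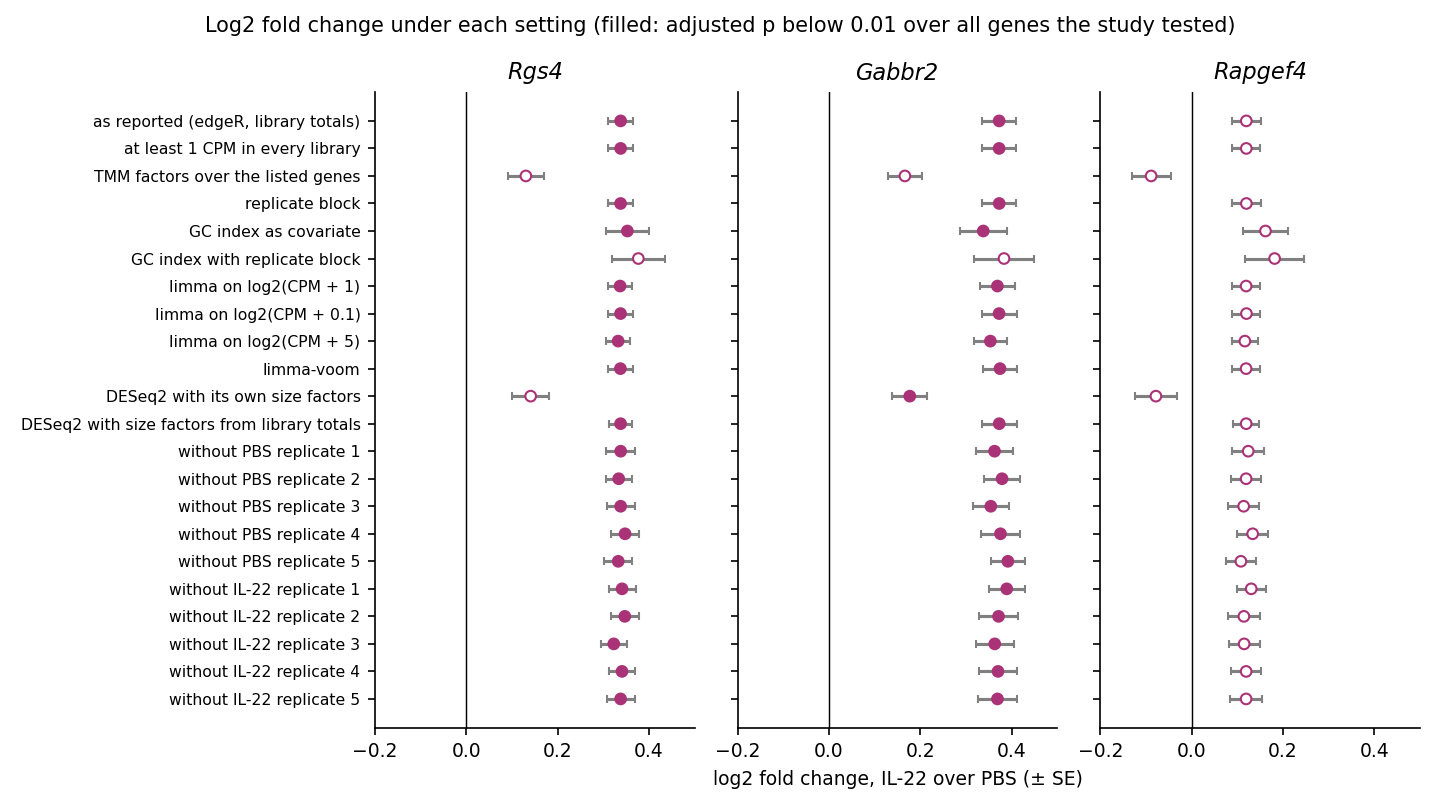
Log2 fold change (IL-22 against PBS, ± SE) of Rgs4, Gabbr2 and Rapgef4 under each setting of the test, with filled points where the adjusted p was below 0.01 over the 16308 genes. Rgs4 lies between 0.32 and 0.35 and Gabbr2 between 0.35 and 0.39 whichever library is left out; scaling on the listed genes lowers all 3 and puts Rapgef4 at -0.089 or -0.078.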

How the data were processed

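mRNA of MIN6N8 cells, 5 PBS and 5 IL-22 libraries, was sequenced from a stranded kit (reads aligned to mm10, per the labels). The aligner and counter are not given in the sources used here. The authors deposited, for 230 genes, raw counts and CPM per library. In 99.7% of values deposited CPM and count per library total match within 0.001. The authors' log2 fold changes, p-values and FDR are in the deposited table and were not used as results. FDR times rank over p gave the 16308 genes the study tested.

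Groups followed the labels. The 3 genes, lists, tests and alternatives were chosen with earlier results of these data known. Counts were tested with edgeR 4.0.16 (R 4.3.3) with quasi-likelihood, library totals as scaling and at least 1 CPM in 5 libraries, which all 230 genes passed. The call was an adjusted p below 0.01, with 16308 as the number of tests, though only the 230 listed genes were fitted. The study's own test had given each of them an FDR of at most 0.04995. Single genes and count ratios were tested by exact permutation in scipy 1.17.1, two-sided. The fit was checked on simulated data. Named were the 3 genes, the 3 listed genes nearest to each, and every listed gene of the pathway lists. Alternatives used limma 3.58.1, DESeq2 1.42.0, other filters, pseudocounts of 0.1 or 5, and each library left out. Overlapping genes were read from GENCODE, and shared transcript sequence was found with blastn 2.17.0. Promoters came from RefSeq, which matched 185 of the 230 genes.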

Additional observations from a re-analysis of the deposited data

How the results depend on the processing

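The log2 fold changes kept their direction under limma, voom, DESeq2 with library totals, other filters and every library left out, where Rgs4 ranged from 0.32 to 0.35, Gabbr2 from 0.35 to 0.39 and Rapgef4 from 0.11 to 0.13 and no call of these 3 changed. Adjusting over the listed genes alone brought Rapgef4 (0.12) past 0.01. With TMM factors over the listed genes the log2 fold change was 0.13 for Rgs4 and 0.17 for Gabbr2, neither past the threshold, and it turned to -0.089 for Rapgef4, -0.092 for Pde1c, -0.086 for Ube2c, -0.075 for Pim2 and -0.080 for Wars. With DESeq2's own size factors Rgs4 had 0.14 and was no longer called, Gabbr2 was still called, and the sign turned to -0.078 for Rapgef4, -0.082 for Pde1c, -0.076 for Ube2c, -0.064 for Pim2 and -0.069 for Wars. Both scalings centre a table in which 197 of 230 genes were higher. Of the 3 members, 2 were called higher as reported, 0 with TMM factors or with the GC index and replicate block together, and 1 with DESeq2's own size factors.

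The number of listed genes called higher, 11 as reported, was 187 when adjusted over the listed genes alone, 28 at a threshold of 0.05, 7 with at least 1 CPM in every library, 2 with TMM factors, 4 with the GC index, 0 with the GC index and replicate block, 17 with limma on log2(CPM + 5), 55 with DESeq2 and library totals, and 4 to 58 with a library left out. Leaving out any library but PBS replicate 1 moved it by more than 1.5 times, to 58 without PBS replicate 5, 7 without PBS replicate 2 and 4 or 5 without any of the others. The number called lower, 0 with edgeR as reported (33 at an unadjusted p below 0.05), was 31 over the listed genes alone, 32 with TMM factors, 33 with DESeq2's own size factors and 4 with DESeq2 and library totals. The cause of these shifts was not tested.

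Replicate numbers are shared between the groups, but deviations of same-numbered libraries correlated at 0.257, 0.287, 0.256, 0.0045 and -0.144, so the numbers were not taken to pair them. With the replicate block in edgeR, Rgs4 (0.34) and Gabbr2 (0.37) kept their calls, Rapgef4 (0.12) stayed uncalled and 9 listed genes were called higher. With the GC index and replicate block, Rgs4 (0.38, adjusted p = 0.0169) and Gabbr2 (0.38, adjusted p = 0.072) were no longer called. The exact sign-flip test over the 5 pairs of the replicate block cannot give a p below 0.0625, which is what it gave for the ratios Rgs4 to Rapgef4 (0.22) and Gabbr2 to Rapgef4 (0.25) and for the mean log2(CPM + 1) of Rgs4 (0.34), Gabbr2 (0.37) and Rapgef4 (0.12). With a library left out the log2 ratio differences ranged from 0.21 to 0.23 for Rgs4 to Rapgef4, from 0.24 to 0.28 for Gabbr2 to Rapgef4 and from -0.059 to -0.017 for Rgs4 to Gabbr2.

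Depth did not limit the 3 genes, each with at least 1935 reads in every library. The limits are the table, which holds only genes selected by the same comparison, and the 5 libraries a group. No value of a single library among the 34 groups of 5 examined stood apart from the rest by Dixon's test.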
